A study of Saccharomyces cerevisiae with 8 samples.

Results

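The net abundance of a mutant after growth in 20 µM selenomethionine (SeMet) was defined as its log2 ratio of the SeMet-grown pool over the pool at time zero. Other scores of this screen set the treated pool against an untreated pool, so that a mutant that lost less ground than the others with SeMet scores high even where it became rarer than it was at the start. The net was the sum of the SeMet score, the mean log2 ratio of 20 µM SeMet over untreated on 3 arrays, and the growth score, the mean log2 ratio of the untreated pool after growth over time zero on 3 further arrays. Of 4749 gene names with a value on any of the 8 arrays, 4515 had at least 2 values in each of these groups and were given a net, and 4249 of them had 3 values in each. The pool mixed haploid deletion mutants of the BY4741 strain (MATa his3 leu2 met17 ura3) with DAmP mutants, in which the mRNA of an essential gene is destabilised. It was grown in synthetic complete medium with methionine and cysteine, and cells were harvested at the same density after 10 generations (16 h by the labels of the growth arrays). The groups were the pool grown with 20 µM SeMet against the untreated pool (3 arrays), the untreated pool after growth against the pool at 0 h (3 arrays), and a lower dose, 12 µM SeMet against the untreated pool (2 arrays). DAmP and deletion alleles cannot be told apart by name, and 1 mutant per gene stands for the loss of that gene.

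SeMet is the analog of methionine in which selenium takes the place of sulfur. Cells take it up through methionine permeases, charge it onto methionine tRNA and insert it into proteins, and they also convert it to the selenium forms of S-adenosylmethionine, homocysteine and cysteine. In a pooled competition a mutant that divides more slowly than the others is diluted at each generation, and the tag of each mutant reports its share of the pool. A net near 0 therefore says that a mutant kept its share of the pool, not that it grew as fast as without SeMet.

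The values were log2 ratios normalized by the authors. On the arrays the medians of the 4515 strains lay between −0.15 and −0.04 for SeMet and between 0.04 and 0.12 for growth. Their SDs were 0.792, 0.771 and 1.09 on the SeMet arrays 1, 2 and 3, against 0.760, 0.678 and 0.764 on the growth arrays, so that replicate 3 of SeMet was the widest. By the labels the SeMet pool, and on growth arrays the grown pool, always carried Cy3, and no dyes were swapped. A dye effect of a tag would enter the net once from each group, with the same sign, and cannot be told apart from a change in abundance. The net also takes the untreated pools of both groups as alike, and the labels do not state whether they were the same cultures. HIS3 and MET17, genes already mutated in the parental strain, had nets of −0.32 and 0.36.

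Most mutants ended close to their starting share of the pool. The net had a median of 0.02 and an SD of 0.981 over the 4515 strains, and 2552 strains (56.5%) lay within 0.5 of 0. Its range was wide, with the lowest strain at −6.46 and the highest at 5.25, where a strain that never divided during the 10 generations would fall to −10 if the arrays were linear. A net below −1.5 was found for 291 strains (6.45%) and a net above 1.5 for 226 (5.01%). By limma, with Benjamini-Hochberg adjustment over all 4515 strains, 588 strains (13.0%) were lower than at time zero and 555 (12.3%) were higher at an adjusted p under 0.05. In each of these strains every measured sum of 1 SeMet array and 1 growth array (9 where no array was missing) fell on the same side of 0. The sums use the values that gave the calls and are no separate support. Leaving out 1 array gave 416 to 504 lower and 322 to 457 higher strains, and the higher count fell the most without growth replicate 2 (322) or growth replicate 1 (329). The median SE of a net was 0.22, against a median SD of 0.31 between the probes of one strain.

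The 2 terms of the net differed in shape, as the plot of the SeMet score against the growth score shows. For the SeMet score 575 strains (12.7%) were lower and 534 (11.8%) higher, and its long tail was on the high side, with 237 strains above 1.5 and 137 below −1.5. For the growth score 474 strains (10.5%) were lower and 513 (11.4%) higher, and its long tail was on the low side, with 37 strains above 1.5 and 186 below −1.5. Without SeMet replicate 3 the SeMet score was lower in 328 and higher in 355 strains, and the growth score was lower in 235 and 270 strains without growth replicate 1 and 2 and higher in 142, 171 and 276 without growth replicate 1, 2 and 3. The net shares its arrays with both terms, so the 3 sets of calls are not independent. Among strains with a lower net the median SeMet term was −0.79 and the median growth term −0.53. Among strains with a higher net these medians were 0.59 and 0.52.

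**Figure D1:**
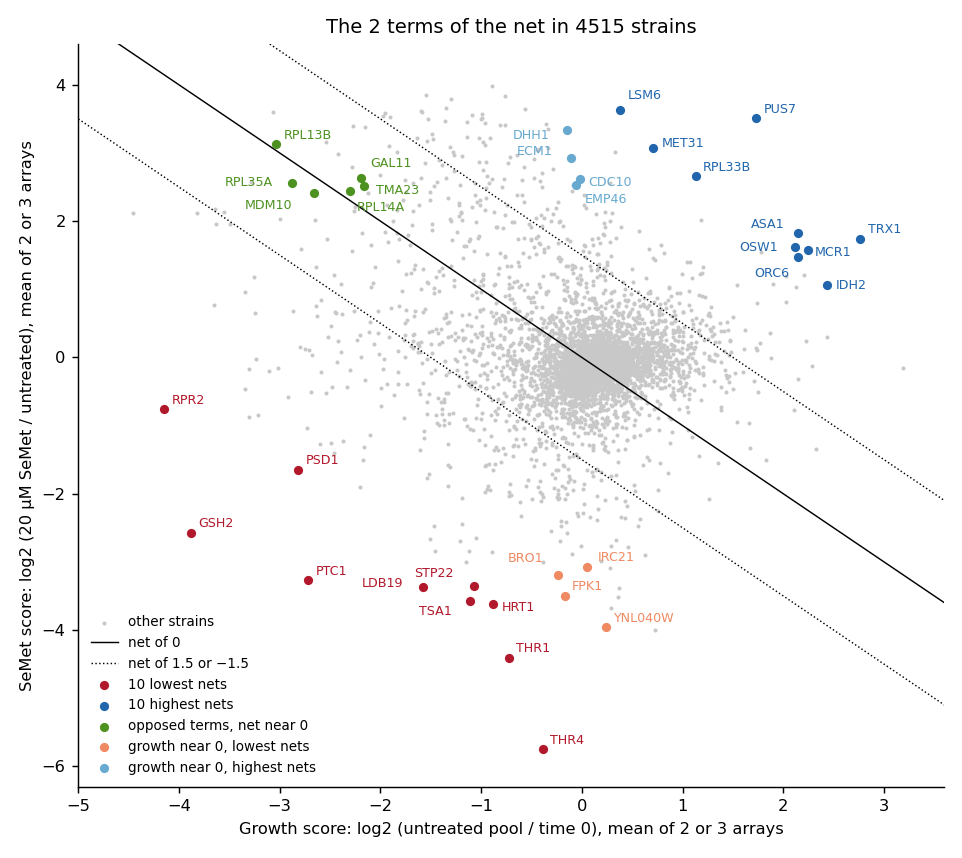
SeMet score (log2 of 20 µM SeMet over untreated, y axis) against growth score (log2 of untreated over time zero, x axis) for 4515 strains, each point the mean of 2 or 3 arrays per axis. Lines join points of equal net. The lowest nets lie at the lower left, from RPR2 (growth −4.15) to THR4 (SeMet −5.75), and RPL13B, whose terms are opposed, lies close to the line of a net of 0.

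The lowest nets belonged to mutants of unlike functions. GSH2 (YOL049W), glutathione synthetase, read −1.58, −3.69 and −2.46 on the SeMet arrays and −4.40, −2.56 and −4.68 on the growth arrays. All 6 values were below 0, and the net of −6.46 ± 0.70 (SE, limma adjusted p = 0.00195) is an 87.7-fold loss of share, of which the growth term (−3.88) was the larger part. PTC1 (YDL006W), a protein phosphatase of type 2C, also lost through both terms, with −3.78 and −2.76 on 2 SeMet arrays and −3.04, −1.37 and −3.74 on the growth arrays. Its net was −5.99 ± 0.71 (SE, adjusted p = 0.00378).

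THR4 (YCR053W) and THR1 (YHR025W), threonine synthase and homoserine kinase, the last steps of threonine synthesis, lost most of theirs in SeMet. THR4 read −4.99, −9.15 and −3.10 on the SeMet arrays and −0.20, −1.15 and 0.19 on the growth arrays. SeMet replicate 2 was far below the others, and the net of −6.13 ± 1.39 (SE, adjusted p = 0.0188) was −4.44 without it, while without growth replicate 2 the adjusted p was 0.0566. THR1 was measured on 2 arrays of each group, at −4.55 and −4.25 for SeMet and −1.06 and −0.39 for growth, with a net of −5.13 ± 0.31 (SE, adjusted p = 0.00134). Both thus had a low SeMet score (−5.75 for THR4 and −4.40 for THR1) and a growth score nearer to 0 (−0.39 and −0.72).

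LDB19 (YOR322C), an arrestin-like adaptor that brings the ubiquitin ligase Rsp5 to permeases, had a net of −4.94 ± 0.31 (SE, adjusted p = 0.000536). Its values were −3.95, −2.79 and −3.37 for SeMet and −1.84, −1.5 and −1.37 for growth, all well below 0. HRT1 (YOL133W), the essential RING subunit of SCF ubiquitin ligases, reached −4.50 ± 0.24 (SE, adjusted p = 0.000421), the largest drop of the 10 lowest relative to its SE among those with 3 values in each group. TSA1 (YML028W), the main cytosolic peroxiredoxin, read −3.06, −4.86 and −2.81 for SeMet and −1.59, −0.93 and −0.83 for growth, with a net of −4.69 ± 0.54 (SE, adjusted p = 0.0023). STP22 (YCL008C), which encodes the ESCRT-I subunit Vps23, had a net of −4.42 ± 0.28 (SE, adjusted p = 0.000536).

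As for GSH2, growth without SeMet was the larger term for RPR2 and PSD1, which were also among the lowest nets. RPR2 (YIR015W), an essential subunit of nuclear RNase P, read −2.08 and 0.57 on 2 SeMet arrays, on either side of 0, and −3.87 and −4.43 on 2 growth arrays. Its net was −4.91 ± 0.88 (SE, adjusted p = 0.0169). PSD1 (YNL169C), the mitochondrial phosphatidylserine decarboxylase, read −1.36 and −1.93 for SeMet and −2.33 and −3.30 for growth, with a net of −4.46 ± 0.41 (SE, adjusted p = 0.0031).

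**Figure D2:**
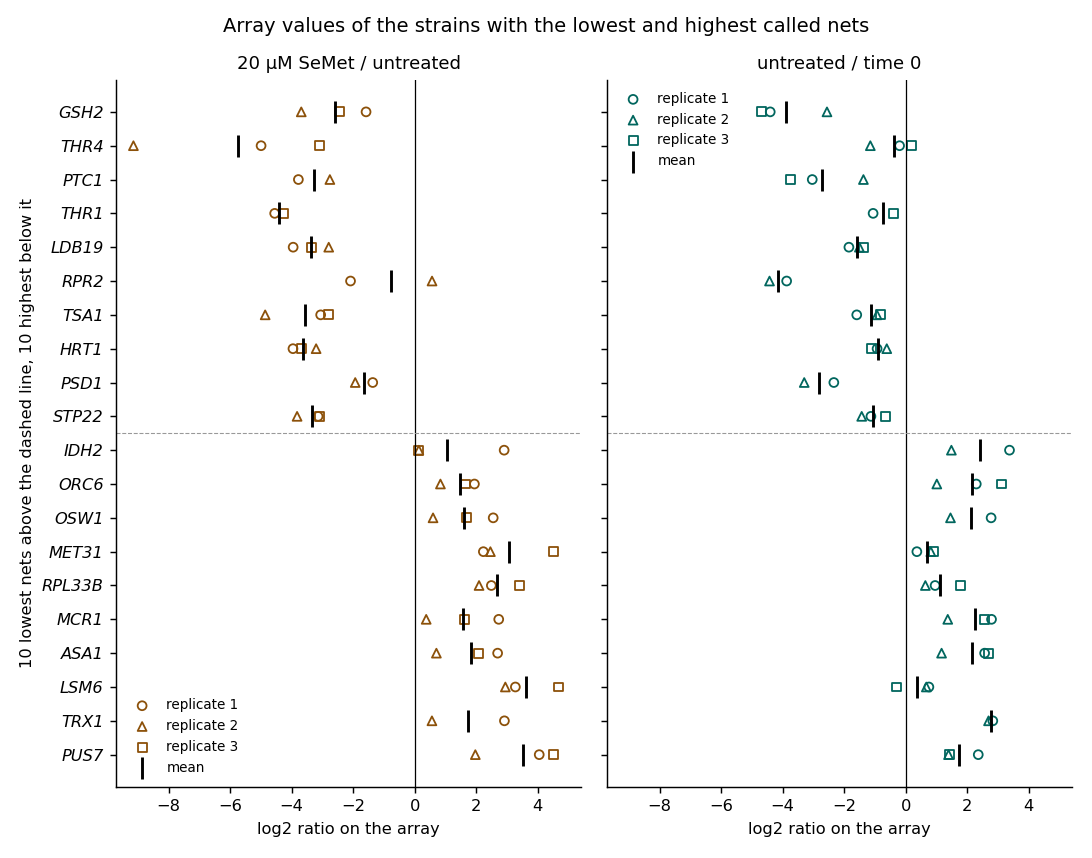
Log2 ratios on each array (open symbols, by replicate) and their means (bars) for the 10 lowest called nets (top) and the 10 highest (bottom), with 20 µM SeMet over untreated at the left and untreated over time zero at the right. THR4 has the lowest single value (−9.15), and 7 of the 10 highest nets have growth means above 1.5.

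The 10 highest nets fell into unlike sets. PUS7 (YOR243C), a pseudouridine synthase of tRNA and other RNA, read 4.05, 1.97 and 4.51 on the SeMet arrays and 2.36, 1.40 and 1.43 on the growth arrays, a net of 5.25 ± 0.65 (SE, adjusted p = 0.00284) and a 37.9-fold gain of share from 1 probe. LSM6 (YDR378C), a subunit of the Lsm1-7 ring that binds the ends of mRNAs bound for decapping, read 3.28, 2.95 and 4.67 for SeMet and 0.76, 0.67 and −0.29 for growth. Its net of 4.01 ± 0.49 (SE, adjusted p = 0.00266) thus came from SeMet and was measured by 4 probes. MET31 (YPL038W), a zinc finger activator of sulfur metabolism genes, had a net of 3.77 ± 0.58 (SE, adjusted p = 0.00526), with 2.23, 2.46 and 4.51 for SeMet and 0.37, 0.82 and 0.92 for growth. RPL33B (YOR234C), a ribosomal protein of the large subunit, had 3.80 ± 0.41 (SE, adjusted p = 0.00199).

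The other 6 had growth scores above 2, and several of them had much the same profile over the arrays. ASA1 (YPR085C), a subunit of the ASTRA complex, read 2.70, 0.71 and 2.07 for SeMet and 2.57, 1.17 and 2.70 for growth. MCR1 (YKL150W), a mitochondrial cytochrome b5 reductase, read 2.73, 0.38 and 1.61 for SeMet and 2.79, 1.37 and 2.57 for growth. In both, replicate 2 was the lowest array of either group, as it was for OSW1 (YOR255W), a spore wall gene, and for ORC6 (YHR118C), of the origin recognition complex. TRX1 (YLR043C), cytosolic thioredoxin, and IDH2 (YOR136W), a subunit of mitochondrial isocitrate dehydrogenase, complete the 6. TRX1, measured on 2 arrays of each group, read 2.92 and 0.56 for SeMet and 2.84 and 2.70 for growth. IDH2 read 2.91, 0.14 and 0.12 for SeMet and 3.38 and 1.49 on 2 growth arrays. Of these 6 the nets ran from 3.49 for IDH2 (adjusted p = 0.0497) to 4.51 for TRX1 (adjusted p = 0.0154), and IDH2 was no longer called without SeMet replicate 2 or SeMet replicate 3 (adjusted p = 0.0601 and 0.0544), nor in the fit without growth replicate 3, on which it had no value (adjusted p = 0.0585).

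These 6 strains rest on few measurements. Of the 12 strains with a net above 3 and a growth score above 1.5, 11 had at most 1 probe with a net, 7 lacked an array and 9 were above 0 on every array measured, those at 12 µM included. Of the 11 strains with a net above 3 and a lower growth score, 1 had at most 1 probe with a net, 1 lacked an array and 4 were above 0 on every array. The split by growth score favours values above 0 on the growth arrays, so the gap in this last count follows in part from the choice. The lowest nets also rested more often on few measurements. Of the 51 strains with a net below −3, 22 (43.1%) had at most 1 probe with a net and 17 (33.3%) lacked an array. GSH2, RPR2, TSA1, HRT1 and PSD1, described above, each had 1 probe with a net. Over all strains 23.2% had at most 1 probe with a net and 5.89% lacked a value on at least 1 of the 6 arrays. No single probe of TRX1 had a net of its own. The part of tag quality and of dye in these high growth scores was not tested.

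Some mutants changed mainly in the SeMet term. Of 2066 strains with a growth score within 0.25 of 0, 50 had a net below −1.5 and 37 a net above 1.5. The lowest called nets among them were those of YNL040W, an open reading frame without a standard name, FPK1 (YNR047W), a kinase that activates phospholipid flippases, BRO1 (YPL084W), an endosomal partner of ESCRT-III, and IRC21 (YMR073C). YNL040W read −4.47, −3.23 and −4.18 for SeMet and 0.42, 0.01 and 0.27 for growth, with a net of −3.72 ± 0.33 (SE, adjusted p = 0.00124). FPK1 had −3.66 ± 0.33 (SE), BRO1 −3.43 ± 0.26 (SE) and IRC21 −3.02 ± 0.19 (SE), with adjusted p-values of 0.00124, 0.00124 and 0.000536.

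At the other end were DHH1 (YDL160C), a DEAD-box helicase that promotes decapping, ECM1 (YAL059W), which exports the large ribosomal subunit, CDC10 (YCR002C), an essential septin, and EMP46 (YLR080W), a cargo receptor of the early secretory pathway. DHH1 read 2.83, 2.61 and 4.57 for SeMet and 0.24, −0.51 and −0.17 for growth, with a net of 3.19 ± 0.51 (SE, adjusted p = 0.0062). DHH1 was named for a growth score near 0 and a high net, so a gap between its terms follows from the choice. Its SeMet replicate 3 was the highest. The nets were 2.81 ± 0.49 (SE, adjusted p = 0.00794) for ECM1 and 2.46 ± 0.37 (SE, adjusted p = 0.00502) for EMP46. CDC10 reached 2.60 (adjusted p = 0.0488), and none of the fits without 1 of its arrays called it, apart from that without SeMet replicate 1.

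Among strains with growth called higher, the lowest nets were those of mutants with a low SeMet score. These mutants were named for a higher growth score and a low net. As the net is the sum of both terms, a net above the SeMet score follows from the choice. MSP1 (YGR028W), an ATPase that extracts misplaced proteins from the mitochondrial outer membrane, read −2.50, −2.14 and −2.13 for SeMet and 0.63, 0.66 and 0.99 for growth. Its SeMet score was −2.26 and its net −1.5 ± 0.19 (SE, adjusted p = 0.00305). VPS1 (YKR001C), a dynamin-like GTPase of vacuolar sorting, had −1.57 for SeMet, 0.60 for growth and a net of −0.97 ± 0.19 (SE, adjusted p = 0.012). The next lowest, the maltose permease MAL31 (YBR298C) and the phenylalanyl-tRNA synthetase subunit FRS1 (YLR060W), both had a net of −0.84 and were not called (adjusted p = 0.0681 and 0.0584). The 2 probes of MAL31 with a net of their own read −1.687 and −1.625, both below the net of the strain. MAL31 was called without growth replicate 1 (−1.13, adjusted p = 0.0228) and FRS1 without SeMet replicate 1 (−1.12, adjusted p = 0.0138).

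Other mutants combined a high SeMet score with a low growth score. For 154 of the 4515 strains the SeMet score was higher and the growth score lower, with medians of 1.64 and −1.34. The median of their nets was 0.13, within a range of −2.33 to 2.48. In 76 of the 154 strains the net lay within 0.5 of 0, and by limma 11 were lower than at time zero, 24 were higher and 119 were not called. Over all strains 56.5% lay within 0.5 of 0, 13.0% were lower and 12.3% higher. The 154 were chosen for opposed terms, which by itself draws their sum toward 0. RPL13B (YMR142C) was one of the 76, with 2.12, 2.83 and 4.45 on the SeMet arrays, −3.72 and −2.35 on 2 growth arrays and a net of 0.10 ± 0.74 (SE, adjusted p = 0.936). GAL11 (YOL051W), a tail subunit of Mediator, read 1.95, 2.51 and 3.45 for SeMet and −1.96, −1.95 and −2.66 for growth, with a net of 0.45 ± 0.40 (SE, adjusted p = 0.446). RPL13B and GAL11 were named for opposed calls, a net within 0.5 of 0 and a high SeMet score, so the signs of their terms follow from the choice.

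RPL35A and RPL14A of the large ribosomal subunit, the nucleolar protein TMA23 and MDM10, a protein of the mitochondrial outer membrane, were named by the same rule. Their SeMet scores were 2.41 to 2.57 and their growth scores −2.88 to −2.17. The nets were −0.32 for RPL35A, 0.14 for RPL14A, 0.34 for TMA23 and −0.25 for MDM10, with adjusted p-values of 0.749 to 0.894. Their SEs of 0.65 to 0.99 leave room for a net on either side of 0.

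The sulfur amino acid genes divided in the same way. SAM1 (YLR180W) and SAM2 (YDR502C), the S-adenosylmethionine synthetases, gained on time zero. SAM1 read 2.42, 3.48 and 5.02 for SeMet and −0.60, −0.23 and −0.87 for growth, and its net was 3.07 ± 0.60 (SE, adjusted p = 0.0123). SAM2 read 2.44, 2.56 and 4.23 for SeMet and −0.41, −0.38 and −0.24 for growth, and its net was 2.74 ± 0.46 (SE, adjusted p = 0.00711). In both every SeMet value was above 2 and every growth value was below 0.

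CYS3 (YAL012W), cystathionine gamma-lyase, and MUP1 (YGR055W), the high affinity methionine permease, also scored high with SeMet, and their nets were not called. CYS3 read 0.98, 2.05 and 2.81 for SeMet and −2.03, −0.97 and −2.05 for growth, and its net was 0.26 ± 0.50 (SE, adjusted p = 0.732). MUP1 was measured on 2 arrays of each group, at 1.40 and 2.25 for SeMet and −2.84 and −1.53 for growth, and its net was −0.36 ± 0.53 (SE, adjusted p = 0.66). CYS4, the enzyme of the preceding step, had too few values for a net. Of 11 measured genes of methionine uptake, the S-adenosylmethionine cycle and transsulfuration, 4 were higher (36.4%, against 12.3% of all strains) and 0 lower by limma (2 at an unadjusted p under 0.05), with a median of 0.26. The lowest nets among these were those of the S-adenosylhomocysteine hydrolase SAH1 (−0.86, adjusted p = 0.059) and of the methionine synthase MET6 (−0.63, adjusted p = 0.112), neither of them called. SAH1 was called without SeMet replicate 2 (−1.15, adjusted p = 0.015).

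The 2 isozymes of methylenetetrahydrofolate reductase, which makes the methyl donor of methionine synthesis, moved apart. MET13 (YGL125W) read −3.71, −3.53 and −3.31 for SeMet and −0.09, 0.63 and 0.54 for growth, and fell to a net of −3.16 ± 0.24 (SE, adjusted p = 0.000772). MET12 (YPL023C) read 1.42, 1.64 and 2.69 for SeMet and 0.61, 0.47 and −0.38 for growth, and rose to 2.15 ± 0.40 (SE, adjusted p = 0.0102). MET13 and MET12 had the lowest and the highest net of the folate list and were named for that, so a gap between their values follows from the choice. Among 13 folate and one-carbon genes 1 was lower (7.69%, against 13.0% of all strains) and 3 were higher (23.1%, against 12.3%), the third of these being the cytosolic serine hydroxymethyltransferase SHM2 (1.28, adjusted p = 0.0396). SHM2 was not called without SeMet replicate 2 or 3 or growth replicate 2 or 3 (adjusted p = 0.0736 to 0.103), and the number of higher genes was then 1 or 2. In sulfate assimilation and its regulators 1 of 17 was lower (5.88%) and 3 higher (17.6%). These were the sulfate permease SUL1 (−0.62, adjusted p = 0.0492, not called without SeMet replicate 2 or 3 or any 1 growth array) and, among the higher, MET31 and MET22 (YOL064C, 1.43 ± 0.31 (SE), adjusted p = 0.0164), a phosphatase that removes the byproduct of sulfate reduction.

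Of the 4 measured genes from aspartate to threonine 3 were lower (75%, against 13.0% of all strains), with a median of −3.68. The remaining one, the dehydrogenase HOM2 (0.91, adjusted p = 0.36), was called only without SeMet replicate 2 (1.73, adjusted p = 0.0199). THR1 and THR4 were chosen with earlier results of these samples known, so this count is not independent evidence of the direction. Of 10 lysine, 9 arginine and 11 aromatic amino acid genes 0 were lower by limma, also at an unadjusted p under 0.05, and 1 was higher, the acetylglutamate synthase ARG2 (1.49 ± 0.39 (SE), adjusted p = 0.0312), which was no longer called without SeMet replicate 1 or without any 1 growth array. LYS20, a homocitrate synthase, was not called, with 1.90, 3.76 and 5.14 for SeMet, −2.12, −1.15 and −1.5 for growth and a net of 2.01 ± 0.75 (SE, adjusted p = 0.0943), but was called without SeMet replicate 1 (2.86, adjusted p = 0.0135). LEU3 (YLR451W), the activator of leucine synthesis genes, was lower, at −1.73 ± 0.26 (SE, adjusted p = 0.00486). Of 12 purine synthesis genes 4 were higher (33.3%, against 12.3% of all strains). They were led by ADE8 (1.51, adjusted p = 0.0112) and the activator PHO2 (1.14, adjusted p = 0.00624), and ADE8 owed 1.17 of its net to growth.

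Of 29 genes of superoxide, peroxide and thiol defence 9 were lower (31.0%, against 13.0% of all strains) and 5 higher (17.2%, against 12.3%), with a median of 0.10. The lower ones were led by GSH2 and TSA1, described above. SOD1 (YJR104C), the copper-zinc superoxide dismutase, read −1.95, −1.76 and −1.41 for SeMet and 0.04, −0.35 and −0.58 for growth, and had a net of −2.0 ± 0.23 (SE, adjusted p = 0.00231). SOD2 (YHR008C), the mitochondrial enzyme, read −1.33 and −1.67 on 2 SeMet arrays and 1.98, 1.95 and 1.55 on the growth arrays. Its terms cancelled, and its net was 0.33 ± 0.23 (SE, adjusted p = 0.339), from 1 probe. The highest of the list were TRX1 and the mitochondrial thioredoxin reductase TRR2 (2.47, adjusted p = 0.0177), whose growth score of 2.23 made up nearly all of its net. TRR2 was not called without growth replicate 3 (adjusted p = 0.0517). The number higher was 2 without SeMet replicate 1 or SeMet replicate 2 and 3 without any 1 growth array, and 1 with 2 or more probes required.

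**Figure D3:**
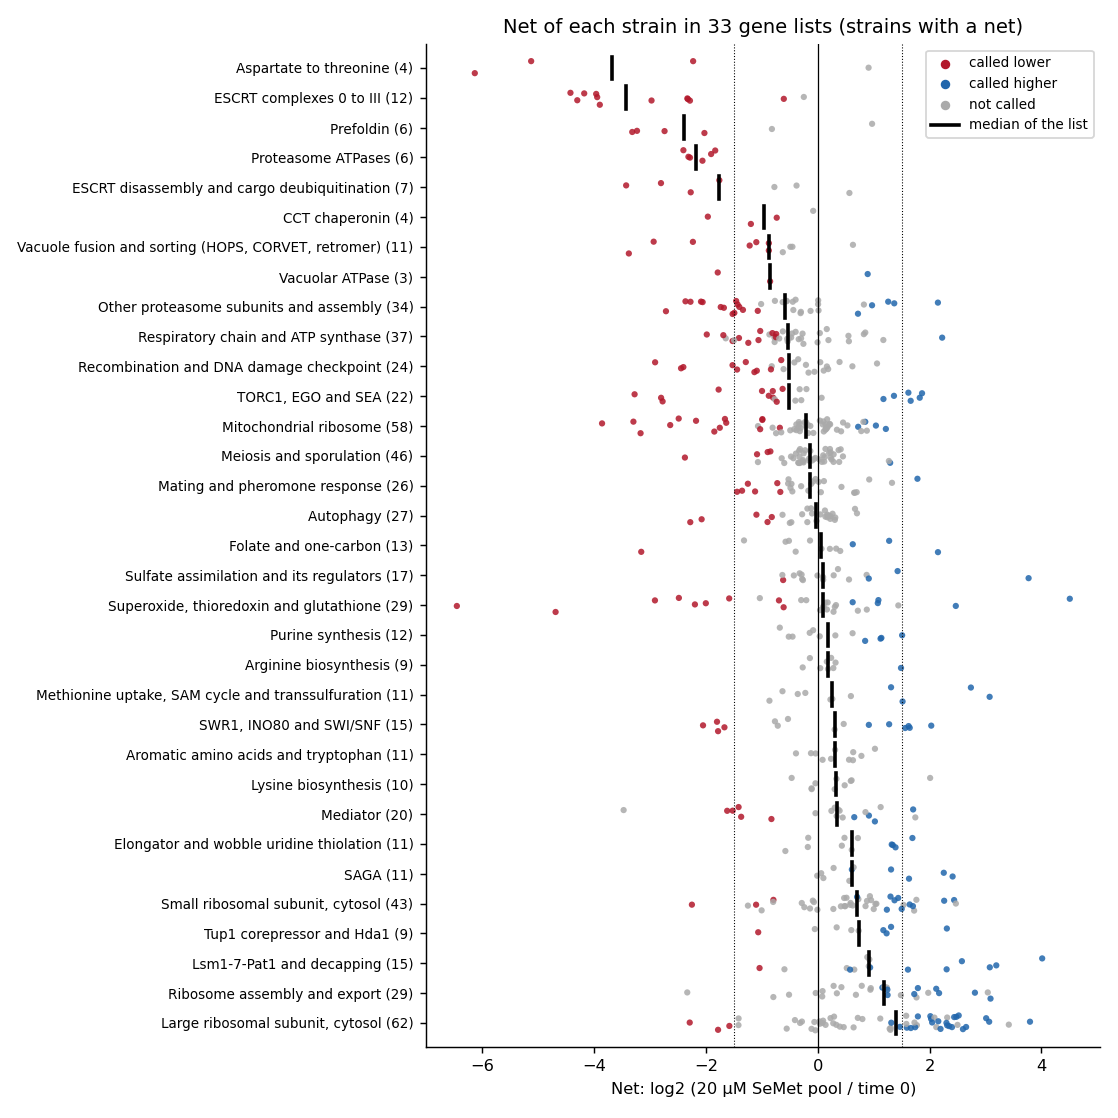
Net of every measured strain (points, coloured by call, x axis in log2) in 33 gene lists, ordered by the list median (bar), with the number of strains with a net in brackets and dotted lines at −1.5 and 1.5. Medians run from −3.68 for the genes from aspartate to threonine to 1.39 for the large ribosomal subunit.

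The median nets of cytosolic ribosome mutants were above 0 at 20 µM and their median growth scores below 0, and most of these mutants were not called. Of 62 mutants of the large subunit 23 were higher (37.1%, against 12.3% of all strains) and 3 lower (4.84%, against 13.0%). The medians were 1.39 for the net, 2.38 for the SeMet score and −0.71 for growth. In the small subunit, with 43 mutants, 10 (23.3%) passed the test above 0 and 3 below it, with medians of 0.70, 1.76 and −1.05. Of 29 genes of ribosome assembly and export 9 were higher (31.0%) and 0 lower by limma (2 at an unadjusted p under 0.05), with medians of 1.19, 2.22 and −0.99. Resistance of these groups was named by the study from the same arrays, so the direction of the SeMet term is not independent evidence.

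The size of these medians depended on 1 array. On the SeMet arrays 1, 2 and 3 the median of the large subunit was 1.85, 1.95 and 3.29, against 0.70 and 0.68 on the arrays of 12 µM and −0.82, −0.46 and −0.58 on the growth arrays. Without SeMet replicate 3 the median nets were 0.89 for the large subunit, 0.41 for the small subunit and 0.42 for assembly and export. The calls were less affected, with 28, 7 and 9 mutants higher without that array. For the small subunit the number higher was 6 without growth replicate 2 or growth replicate 3.

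Among the large subunit mutants RPL29 (YFR032C-A) read 1.93, 2.23 and 2.98 for SeMet and −0.40, 0.22 and 0.25 for growth, with a net of 2.40 ± 0.32 (SE, adjusted p = 0.00339). RPL26B (YGR034W) read 2.15, 1.86 and 3.34 for SeMet and −0.21, 0.13 and −0.22 for growth, with a net of 2.35 ± 0.38 (SE, adjusted p = 0.00627). Both grew near the pool average without SeMet and gained with it. The lowest were RPL21A (−2.29, adjusted p = 0.0423) and RPL19B (−1.78, adjusted p = 0.00539), each with negative means in both terms. RPL21A was not called without any 1 of its SeMet arrays (adjusted p = 0.0518 to 0.0874), nor in the fit without growth replicate 3, on which it had no value (adjusted p = 0.0507). In the small subunit the lowest was RPS21B, at −2.25 ± 0.26 (SE, adjusted p = 0.00231), and the highest nets were those of RPS24A (2.47, adjusted p = 0.0776) and RPS17B (2.44, adjusted p = 0.0352). RPS24A was called without SeMet replicate 1 (3.12, adjusted p = 0.037), and RPS17B was not called without SeMet replicate 1 or 3 or growth replicate 1 or 2 (adjusted p = 0.0799 to 0.0991).

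Most ribosomal proteins of yeast are encoded by 2 near-identical genes, and the nets of the A and B mutants often differed in value. In 36 pairs with both nets the median difference was 1.12 in size, 19 pairs differed by more than 1, and 13 lay on opposite sides of 0. These differences were not tested. The SEs of some of these nets were large, such as 0.74 for RPL13B and 1.17 for RPL7B, against a median of 0.22 over all strains. In 1 pair, RPL9A and RPL9B, both mutants were higher (2.03 and 2.01, adjusted p = 0.0467 and 0.0313), and in 0 pairs were both lower by limma (5 pairs higher and 0 lower at an unadjusted p under 0.05). The calls ran in opposite directions in 3 pairs, which were chosen after their values were seen. They were RPL40A (−1.58) and RPL40B (3.07), RPL19A (2.30) and RPL19B (−1.78), and RPS21A (1.5) and RPS21B (−2.25). RPL40A read −1.92, −1.78 and −1.34 for SeMet and 0.03, 0.28 and −0.02 for growth, and RPL40B read 2.19, 2.98 and 5.09 for SeMet and −0.17, −0.56 and −0.32 for growth. The genes of this pair encode the same ubiquitin fusion protein. RPL40A, the lower mutant, differed from RPL40B in the SeMet term and hardly in growth. As the pair was chosen for its opposite calls, a gap between its nets follows from the choice.

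**Figure D4:**
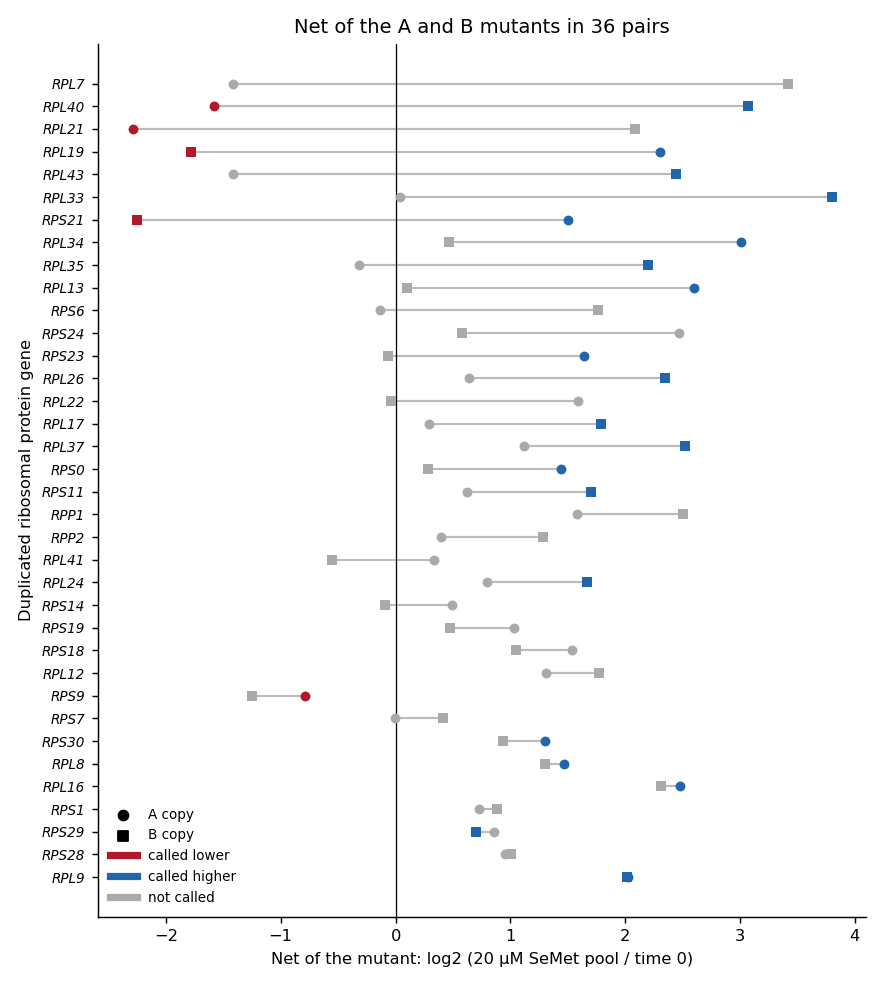
Nets (x axis, log2) of the A mutant (circle) and the B mutant (square) for 36 duplicated ribosomal protein genes, coloured by call and ordered by their difference. The largest difference is that of RPL7 (−1.42 and 3.42, neither called), and 19 pairs differ by more than 1.

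In ribosome assembly BUD20 (YLR074C), an export factor of the large subunit, read 2.92, 3.36 and 5.67 for SeMet and −1.58 and −0.21 on 2 growth arrays. Its net of 3.09 ± 0.88 (SE, adjusted p = 0.0488) was not called without SeMet replicate 2 (adjusted p = 0.071), nor in the fit without growth replicate 3, on which it had no value (adjusted p = 0.0577). The lowest of the group was LOC1, with a SeMet score of 2.13, a growth score of −4.46 and a net of −2.33 (adjusted p = 0.117), which was called without SeMet replicate 3 (−3.27, adjusted p = 0.00653). Of 11 genes that modify the wobble uridine of tRNAs (Elongator and the Urm1 thiolation path) 4 were higher (36.4%, against 12.3% of all strains). By limma 0 were lower, also at an unadjusted p under 0.05. The medians were 0.61 for the net, 1.96 for SeMet and −0.95 for growth. URM1 (YIL008W), the sulfur carrier of that path, read 2.09, 2.10 and 2.84 for SeMet and −1.21 and −0.69 on 2 growth arrays, with a net of 1.39 ± 0.31 (SE, adjusted p = 0.0243), and the thiolase NCS6 (YGL211W) reached 1.69 ± 0.35 (SE, adjusted p = 0.0145). Without SeMet replicate 3 the median of the 11 was 0.21, and without growth replicate 2 the number called was 2. EAP1 (YKL204W), a partner of the translation factor eIF4E, gained as well, with 2.77, 3.77 and 4.83 for SeMet, −1.10, −1.12 and −1.68 for growth and a net of 2.48 ± 0.49 (SE, adjusted p = 0.0126).

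Of 15 genes of the Lsm1-7-Pat1 complex and mRNA decapping 8 were higher (53.3%, against 12.3% of all strains) and 1 lower, with medians of 0.92 for the net, 1.00 for SeMet and −0.03 for growth. In growth 2 of them were lower, LSM5 and LSM2, with scores of −1.75 and −1.59. The highest were LSM6 and DHH1, and the one lower member was LSM5 (YER146W, −1.04 ± 0.21 (SE), adjusted p = 0.018). LSM5 read 0.68, 0.61 and 0.82 for SeMet and −1.52 and −1.97 for growth, and it was not called without SeMet replicate 1 (adjusted p = 0.051).

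Transcription complexes were mixed. Over all strains 13.0% were lower and 12.3% higher. The shares higher were 44.4% for the TUP1 list, 45.5% for SAGA, 20% for Mediator and 40% for the SWR1, INO80 and SWI/SNF remodellers. In the same order the shares lower were 11.1%, 0%, 25% and 26.7%. TUP1 (YCR084C), the general corepressor, read 2.48, 4.0 and 4.50 for SeMet and −1.11, −1.21 and −1.73 for growth, with a net of 2.31 ± 0.50 (SE, adjusted p = 0.0167), and 4 of 9 genes of its list were higher and 1, the glucose repressor MIG1 (−1.06, adjusted p = 0.0102), lower. Of 11 SAGA genes 5 were higher and 0 lower by limma, also at an unadjusted p under 0.05, led by SGF29 (YCL010C) with 1.67, 2.38 and 2.29 for SeMet, 0.25, 0.32 and 0.33 for growth and a net of 2.41 ± 0.22 (SE, adjusted p = 0.00124). That count fell to 2 without SeMet replicate 1, SeMet replicate 3, growth replicate 2 or growth replicate 3, and to 3 without either of the other arrays. Of 20 Mediator genes 5 were lower, including CSE2 (−1.62, adjusted p = 0.0216), and 4 higher, including SSN2 (1.71, adjusted p = 0.035), which belongs to its kinase module. CSE2 was not called without SeMet replicate 1 or 2, and SSN2 was not called without SeMet replicate 1 or any 1 growth array, where the number higher in Mediator was 2 or 3. Of 15 genes of the SWR1, INO80 and SWI/SNF remodellers 6 were higher and 4 lower. IES5 and IES4 of INO80 had nets of 2.03 and 1.65 (adjusted p = 0.00143 and 0.00431), whereas VPS71 and SWC5 of SWR1 had −2.05 and −1.80 (adjusted p = 0.0141 and 0.00653). The median net of these 15 was −0.29 without SeMet replicate 3, against 0.30 with it.

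Mutants in the sorting of ubiquitinated membrane proteins into the vacuole lost share as a group. Of 12 ESCRT genes 11 were lower (91.7%, against 13.0% of all strains) and 0 higher by limma, also at an unadjusted p under 0.05, and 10 had nets below −1.5. The medians were −3.44 for the net, −2.68 for SeMet and −0.65 for growth, and leaving out 1 array kept the median net between −3.57 and −2.99. VPS20 (YMR077C), of ESCRT-III, read −3.53, −2.34 and −2.66 for SeMet and −1.25, −1.46 and −1.65 for growth, with a net of −4.30 ± 0.32 (SE, adjusted p = 0.000772). The exceptions were MVB12, which was not called at −0.25 (adjusted p = 0.363), and HSE1, at −0.61 (adjusted p = 0.0311), which lost its call in every fit without 1 array. The study picked out ESCRT from these samples, so this count is not independent evidence either.

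Taking ESCRT apart and removing ubiquitin from its cargo involve 7 measured genes, and 4 of them were lower (57.1%, against 13.0% of all strains). The medians of the 7 were −1.76 for the net and 0.01 for growth, and the nets ran from BRO1 (−3.43) to IST1 (0.57, adjusted p = 0.122). Of 11 genes of vacuole fusion and sorting 7 were lower (63.6%), and the median of the 11 was −0.87. The lowest were VPS3 (YDR495C, −3.38 ± 0.34 (SE), adjusted p = 0.00231) of the CORVET tether and VPS9 (−2.94, adjusted p = 0.0164), and the number lower was 4 without SeMet replicate 2. PBI2 (YNL015W), an inhibitor of vacuolar proteinase B, read −3.61, −3.59 and −3.84 for SeMet and 0.53, 0.00 and 0.35 for growth, with a net of −3.39 ± 0.19 (SE, adjusted p = 0.000421). Its SeMet values lay close together and far from its growth values.

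All 6 proteasome ATPases of the regulatory particle, essential genes held as DAmP mutants, were lower (100%), with nets of −2.40 for RPT2 (adjusted p = 0.00175) to −1.83 for RPT3 (adjusted p = 0.0164). RPT2 (YDL007W) read −1.48, −2.19 and −2.35 for SeMet and −0.44, −0.41 and −0.34 for growth, all below 0. The medians of the 6 were −2.17 for the net, −1.93 for SeMet and −0.25 for growth, and they too were chosen by the study from these samples. Of 34 other subunits and assembly factors 14 were lower (41.2%, against 13.0% of all strains) and 5 higher (14.7%, against 12.3%). The lower ones included subunits of the core particle with nets near those of the ATPases, such as SCL1 (−2.09), PRE1 (−2.06) and PRE9 (−1.74), and RPN12 (−1.68), RPN9 (−1.40) and RPN2 (−1.34) of the regulatory particle. In SCL1, PRE1 and PRE9 growth was the larger term, at −1.62, −1.16 and −1.04, against −0.47, −0.90 and −0.70 for SeMet. For RPN12, RPN9 and RPN2 the SeMet term was the larger, at −1.32, −1.26 and −1.06. No test compared the ATPases with these other subunits, and the number higher was 3 without SeMet replicate 1, growth replicate 1 or growth replicate 2. PRE2 and PRE5 of the core particle were the lowest, at −2.71 and −2.37 (adjusted p = 0.00378 and 0.00502), and PRE2 (YPR103W) lost its share mainly in growth, with −0.03, −0.82 and −1.30 for SeMet and −2.29, −1.47 and −2.23 for growth. POC4, an assembly chaperone of the core, was the highest, at 2.15 ± 0.34 (SE, adjusted p = 0.00561).

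UBP6 (YFR010W), the deubiquitinase of the proteasome, read −2.69, −3.40 and −2.61 for SeMet and 1.26, 0.05 and 0.55 for growth, with a net of −2.28 ± 0.36 (SE, adjusted p = 0.00559). UBP14 (YBR058C), which takes apart free ubiquitin chains, had −1.43 ± 0.32 (SE, adjusted p = 0.0187) and was not called without SeMet replicate 1 (adjusted p = 0.0569). Both had growth scores above 0 and nets below it. Prefoldin, which hands unfolded actin and tubulin to the CCT chaperonin, had 4 of 6 mutants lower (66.7%, against 13.0% of all strains). By limma 0 were higher, also at an unadjusted p under 0.05. The medians were −2.38 for the net, −1.21 for SeMet and −0.99 for growth, so that both terms weighed. GIM5 (YML094W) was the lowest, at −3.32 ± 0.35 (SE, adjusted p = 0.00178), and PFD1 the highest, at 0.97 (adjusted p = 0.256). Of 4 CCT mutants 3 were lower (75%) with a median SeMet score of −0.07, and the number was 1 without growth replicate 2.

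RRD1 (YIL153W), an activator of protein phosphatase 2A, read −5.38, −2.90 and −3.75 for SeMet and 0.57, 1.07 and 0.55 for growth, and its net was −3.28 ± 0.58 (SE, adjusted p = 0.0086). TIP41, which acts with the same phosphatases downstream of TORC1, was lower as well, at −2.80 ± 0.41 (SE, adjusted p = 0.00476). RRD2 (YPL152W), a second activator of the same kind, was higher, at 1.86 ± 0.22 (SE, adjusted p = 0.00231), as was the phosphatase subunit RTS1 (1.82, adjusted p = 0.0194), which was not called without growth replicate 2 (adjusted p = 0.0573) or growth replicate 3 (adjusted p = 0.0511). In the whole list of 22 TORC1, EGO, SEA and phosphatase genes 10 were lower (45.5%, against 13.0% of all strains) and 6 higher (27.3%, against 12.3%), and the number lower was 6 without growth replicate 1 or growth replicate 3.

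In the mitochondrial and DNA repair lists the median growth score was further below 0 than the median SeMet score. Of 58 mitochondrial ribosome genes 14 were lower (24.1%) and 4 higher (2 without growth replicate 1 or growth replicate 2), with medians of −0.21 for the net, 0.29 for SeMet and −0.44 for growth. RSM22 (YKL155C) read −1.68, −0.87 and −1.64 for SeMet and −1.77, −2.10 and −3.52 for growth, with a net of −3.86 ± 0.47 (SE, adjusted p = 0.00264), and MRP7 (YNL005C) had −0.57, 0.20 and −0.21 for SeMet, −2.86, −3.41 and −3.04 for growth and a net of −3.30 ± 0.25 (SE, adjusted p = 0.000772). Of 37 genes of the respiratory chain and ATP synthase 10 were lower (27%, against 13.0% of all strains). The medians of the 37 were −0.54 for the net, −0.14 for SeMet and −0.56 for growth. Only 1, the NADH dehydrogenase NDE1 (2.23, adjusted p = 0.0138), was higher. The number lower was 4 or 5 without growth replicate 2, growth replicate 1 or SeMet replicate 1. The larger term was SeMet in some lower strains of these lists, such as CYC3, cytochrome c heme lyase, with −1.30 for SeMet and −0.68 for growth. Of 24 genes of recombination and the DNA damage checkpoint 10 were lower (41.7%). By limma 0 were higher, also at an unadjusted p under 0.05. The medians were −0.51 for the net, −0.09 for SeMet and −0.48 for growth. ASF1 (YJL115W), a histone chaperone, had SeMet values of −0.67, −0.07 and −0.54, growth values of −2.21, −2.15 and −3.09 and a net of −2.91 ± 0.30 (SE, adjusted p = 0.00178), and RAD52 (YML032C), central to recombination, had −2.44 ± 0.39 (SE, adjusted p = 0.00853). The number lower was 6 without growth replicate 1.

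Autophagy, meiosis and mating are processes of starved, diploid or pheromone-treated cells. Of 46 meiosis and sporulation genes 37 lay within 0.5 of 0, with 4 lower (8.70%, against 13.0% of all strains, and 2 without SeMet replicate 2 or growth replicate 2) and 1 higher, and CSM1, which also acts at the nucleolus of dividing cells, was the lowest at −2.38 (adjusted p = 0.00155). Of 27 autophagy genes 5 were lower (18.5%) and 0 higher by limma (1 at an unadjusted p under 0.05), including ATG15 (YCR068W), the vacuolar lipase, at −2.08 ± 0.19 (SE, adjusted p = 0.00124), and the number lower was 2 or 3 without SeMet replicate 1 or 2 or growth replicate 1 or 2. Of 26 mating genes 6 were lower (23.1%) and 1, SST2 (1.78, adjusted p = 0.00379), was higher, and the number lower was 3 without SeMet replicate 1 or growth replicate 1. The median net of the mating genes was −0.14, and in the SeMet term 10 of them were lower and 3 higher (12.7% and 11.8% of all strains), with a median of −0.34.

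Values at the lower dose were set beside these nets. Over the 4361 strains with both arrays of 12 µM the number above 1.5 was 21 without SeMet, 83 at 12 µM and 207 at 20 µM, and the number below −1.5 was 135, 177 and 250. The 3 levels share the growth arrays, the 12 µM term comes from 2 arrays, and the values at 12 µM are given without a test. The 20 µM term also holds SeMet replicate 3, the widest array, which has no counterpart at 12 µM. Without that array the median net at 20 µM was 0.89 for all 62 mutants of the large subunit. For 57 mutants of the large ribosomal subunit the median was −0.67 without SeMet, −0.06 at 12 µM and 1.58 at 20 µM. The medians were −1.04, −0.24 and 0.79 for 36 mutants of the small subunit and −0.94, −0.12 and 1.19 for 23 of assembly and export. These groups were thus below time zero without SeMet, close to it at 12 µM and above it at 20 µM.

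For 11 ESCRT mutants the median was −0.23 without SeMet, −2.04 at 12 µM and −2.97 at 20 µM, and for the 6 proteasome ATPases it was −0.25, −0.85 and −2.17. Over all 4361 strains it was 0.10, 0.08 and 0.03. The ESCRT mutants had most of their loss at 12 µM and the ATPases at 20 µM. For 5 prefoldin mutants the median was −1.37 without SeMet, −2.19 at 12 µM and −2.03 at 20 µM, no lower at the higher dose. Among single strains GSH2 was at −3.88, −6.65 and −6.46 and VPS20, with 1 array at 12 µM, at −1.46, −4.74 and −4.30, no lower at the higher dose. MET13 was at 0.36, −4.17 and −3.16, and MET6, which was not called at 20 µM, was at −0.39, −2.30 and −0.63. HRT1 (−0.88, −2.67 and −4.50), LSM6 (0.38, 1.54 and 4.01) and SAM1 (−0.57, 0.50 and 3.07) moved further with each step. CYS3 stayed at −1.69 and −1.86 without SeMet and at 12 µM and was at 0.26 at 20 µM.

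**Figure D5:**
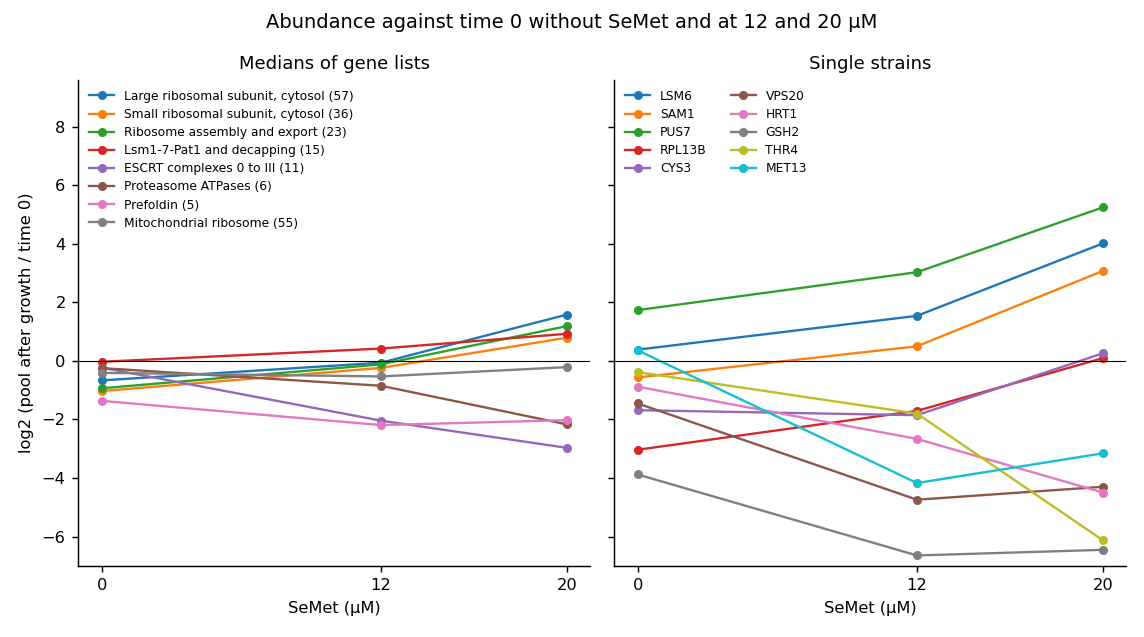
Log2 abundance against time zero (y axis) without SeMet and at 12 and 20 µM (x axis) for medians of 8 gene lists (left, strains with both 12 µM arrays in brackets) and for 10 strains (right), where points without SeMet are the growth scores. The large ribosomal subunit crosses 0 between 12 and 20 µM, and the ESCRT median is already at −2.04 at 12 µM.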

How the data were processed

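Tags of pooled haploid yeast mutants were amplified with Cy3 or Cy5 primers and hybridized to custom Agilent slides. Per probe the authors deposited a log2 ratio, obtained with GenePix Pro and normalized in R. The method of normalization and background correction is not given in the sources used here, and the values were used as they are. The mean over probes lies near 0 on each array, so scores are relative to the pool, and, as no signal intensities were used, the number of arrays limits the precision. Of 15744 probes, 13084 carry 1 gene symbol. The 2660 probes with no symbol (1662 with a value) were not used. Of 5100 names, 5034 were found as a symbol in the RefSeq annotation, 64 as a synonym and 2 not uniquely. Sequences of tags are not used here.

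On each array the mean was taken over the probes of a name, and names with at least 2 values in each group were kept. A probe had a net of its own with 2 or more values in each group, and other probes still entered the means. The net of a strain can thus lie outside those of its probes. Examples are MAL31, CDC10 (2.60, probes 1.87 and 2.17), RPS17B (2.44, probe 1.58) and STP22 (−4.42, probes −4.98 and −4.70). The net, with its SE, was tested as the contrast of the sum of both group means by limma 3.58.1 (lmFit, eBayes; R 4.3.3) on 6 arrays, two-sided, with Benjamini-Hochberg adjustment over 4515 strains. A call needed an adjusted p under 0.05, and the terms were tested in the same fit. Of the 4515 strains, 1041 had 1 probe with a net and 3466 had 2 or more. The p-values measure the spread between arrays, which the labels call biological replicates. The script was tested on simulated data. Tables and plots were made in Python 3.11.15 with pandas 2.3.3, numpy 2.4.6 and matplotlib 3.10.9.

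Named strains are the 10 lowest and 10 highest called nets with every measured sum on one side of 0, 6 strains with opposed terms and a net within 0.5 of 0, the 4 lowest and 4 highest called nets at a growth score within 0.25 of 0, the 4 lowest nets with growth called higher, the lowest and highest nets of each of 33 gene lists (1 of each, or 2 from 10 members on), and 25 genes known from the study or from earlier results of these data. The members, lists and names were chosen with earlier results of these data known. The alternatives were another summary of the probes, other filters on probes and values, centring or scaling of arrays, array weights, robust eBayes, all 8 arrays, a minimum net of 1 in size, the replicate number as a block, and leaving out each array.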

Additional observations from a re-analysis of the deposited data

How the results depend on the processing

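The 588 lower and 555 higher nets were recounted under 10 alternatives and with 1 array left out. With 2 or more probes required, which tests fewer strains, 359 strains had a higher net, 332 a higher SeMet score, 253 a lower and 337 a higher growth score. With a net of at least 1 in size 361 strains were higher. Array weights called 878 strains higher in growth. Leaving out 1 array gave 416 to 504 lower and 322 to 457 higher nets, 328 to 628 lower and 355 to 538 higher SeMet scores, and 235 to 539 lower and 142 to 526 higher growth scores. SeMet replicate 3 set the lowest counts for SeMet, and growth replicate 1 those for growth. The main fit did not pair the arrays by experiment number. The deviations of same-numbered arrays correlated at −0.162, 0.0964 and 0.155 over 4249 strains, and those of different numbers at −0.212 to 0.183. These values look for an untreated culture shared by 2 arrays and cannot tell whether arrays of 1 number came from the same experiment. With the replicate number as a block 531 strains were lower and 468 higher of 4484. Of the 102 named strains that were called, 80 were called in every alternative that gave them a value and the net of 0 changed sign, and of the 53 not called 33 were called in none and the net of 12 changed sign in at least 1. With 2 or more probes required, list counts fell as members dropped out, to 0 higher for wobble uridine modification and to 3 lower for the proteasome ATPases, 5 for other proteasome genes, 8 for the mitochondrial ribosome and 5 for recombination.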
